A study of Mus musculus with 6 samples.

Results

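The Dusp and Spry group holds 10 genes that switch MAP kinase signalling off: 7 dual-specificity phosphatase genes (Dusp1, Dusp2, Dusp4, Dusp5, Dusp6, Dusp10 and Dusp16) and 3 genes of the Sprouty and Spred family (Spry1, Spry2 and Spred1). They were picked by symbol, with earlier results of these data known, and all 10 were found among the 23183 genes listed for each library. RNA came from primary lung ILC2 of wild-type (WT) mice. ILC2 are innate lymphocytes that make type 2 cytokines in response to alarm signals from damaged epithelium. Every culture received IL-2, IL-7 and IL-33 at 10 ng/ml for 24 h. The isotype group (3 libraries) had an IgG2b control antibody in addition, and the DTA-1 group (3 libraries) had DTA-1, an antibody that activates the TNF receptor family member GITR. The comparison asked how GITR engagement changes the transcripts of ILC2 that are already activated, with no unstimulated group analysed here. Whether the libraries of a group came from separate mice or cultures is not stated in the labels, nor are the sex and age of the mice, so a p-value covers only the spread between these libraries.

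MAP kinases (ERK, JNK and p38) are active only while a threonine and a tyrosine in their activation loop both carry phosphate, and dual-specificity phosphatases remove both. Many of these phosphatase genes are themselves switched on by MAP kinase signalling, which makes them a negative feedback, and their transcripts serve as readouts of recent pathway activity. Sprouty and Spred proteins act further up, at the membrane, where they dampen the passage of signals through Ras and Raf to ERK. In lymphocytes both sets respond to antigen receptor, costimulatory and cytokine signals, and GITR passes its signal through TRAF adaptor proteins to NF-kB and MAP kinases.

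The values were taken as FPKM, fragments scaled to transcript length and library size, so levels can be set side by side between genes. The libraries held an estimated 18800000 to 20600000 fragments each and differed little in depth. At that depth a member was covered by an estimated 92 to 2500 fragments per library, which gives a counting error of at most 10%. All 12 ILC2 marker genes passed the filter on low values, while of 46 marker genes of 10 other cell types 6 did. The other-type markers summed to 59.5 to 74.5 FPKM with the isotype and 41.3 to 63.9 FPKM with DTA-1, with Pecam1 the highest (mean 31.4 FPKM). The others that passed were Cd3g (mean 8.84 FPKM), Cd79b (4.49 FPKM), Cd68 (2.95 FPKM), Xcr1 (2.80 FPKM) and Epcam (2.66 FPKM). The markers Clec9a, S100a8, S100a9, Siglecf and Mcpt4 were listed at 0 in every library, although Xcr1 is a dendritic cell marker like Clec9a. DTA-1 replicate 1 stood apart within its group: 143 of 10501 tested genes lay more than 2-fold from the mean of the other libraries of the group, against 15 and 19 genes for DTA-1 replicates 2 and 3. Among the isotype libraries the number was 165, 118 and 28 for replicates 1, 2 and 3.

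Dusp6 was the most abundant member, with 32.3 ± 4.64 FPKM under the isotype and 37.4 ± 10.8 FPKM under DTA-1 (mean ± SD, n = 3 per group here and below). It led in every library, nearly equalled by Dusp4 in DTA-1 replicate 1. Dusp5 came next at 17.5 ± 2.46 and 16.9 ± 3.77 FPKM. The other members lay between 2.50 and 6.94 FPKM on average in the isotype group. In that group Dusp6, Dusp5 and Dusp10 followed each other without overlap of their ranges, and Spry2 lay below Dusp2 without overlap. From Dusp10 down to Dusp2 no neighbouring pair was separated by more than its spread. With DTA-1, Dusp4 moved up to the third place, where its range overlapped with that of Dusp5 and lay above that of Dusp10. Further down, only neighbours with overlapping ranges changed places. Among all tested genes the members ranked from the percentile 12.9 of mean level (Spry2) to percentile 74.7 (Dusp6).

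**Figure D1:**
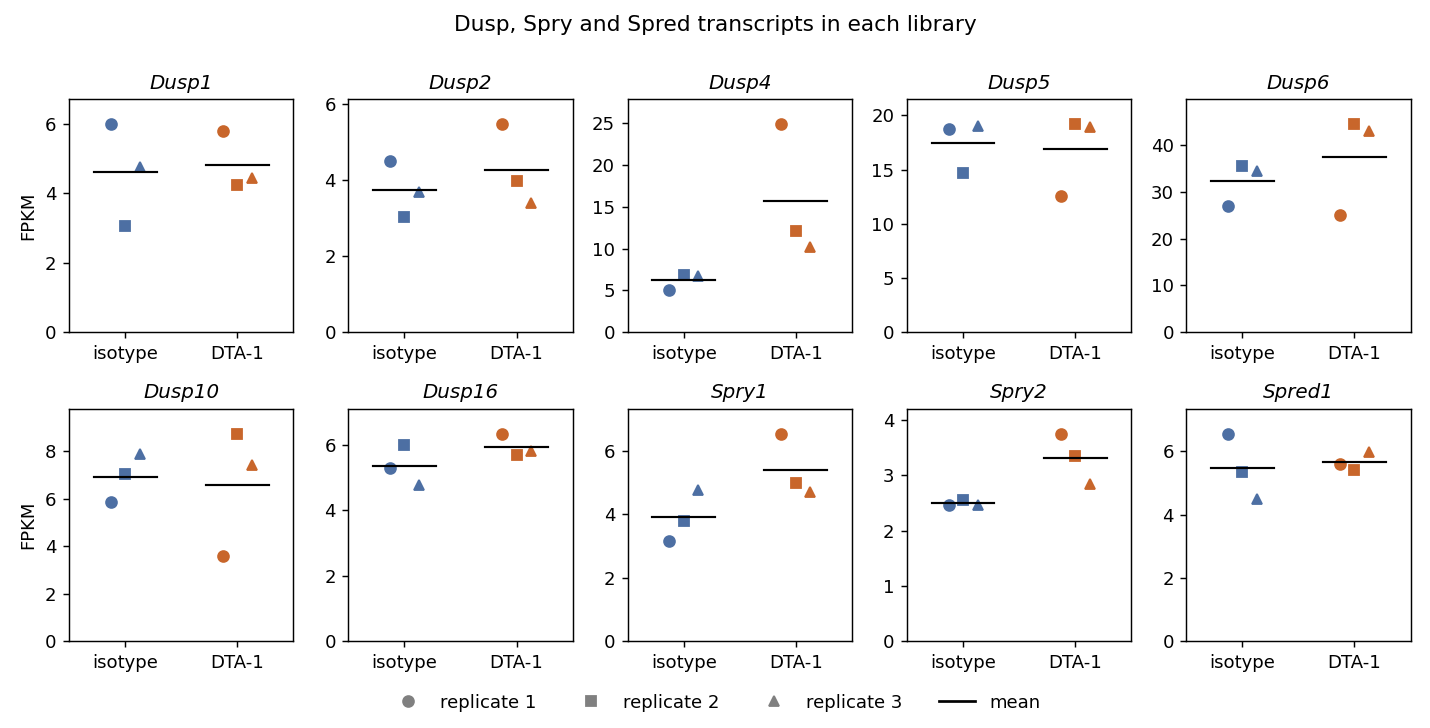
FPKM of each of the 10 genes (y axis, starting at 0) in the 3 isotype and 3 DTA-1 libraries (x axis); symbols mark the replicate number and the line is the group mean. Dusp4 and Spry2 show no overlap between the groups, and DTA-1 replicate 1 (circle) is the highest or the lowest DTA-1 library in every panel except Spred1.

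Among the nuclear phosphatase genes, Dusp4 showed the largest difference of the 10 members, and Dusp1, Dusp2 and Dusp5 lay close to their isotype levels. Dusp4 encodes an inducible nuclear phosphatase of ERK and JNK. It measured 5.07, 6.85 and 6.71 FPKM in isotype replicates 1, 2 and 3 and 24.9, 12.1 and 10.2 FPKM in DTA-1 replicates 1, 2 and 3. Every DTA-1 library lay above every isotype library, and DTA-1 replicate 1 held more Dusp4 than the other DTA-1 libraries together. The group means were 6.21 ± 0.990 and 15.8 ± 7.97 FPKM, a ratio of 2.54. On the log2(FPKM + 1) scale, which understates changes of low genes, the log2 fold change was 1.13 ± 0.29 (SE), with a 95% interval of 0.46 to 1.79. Dusp4 did not pass the test over all 10501 genes (limma, adjusted p = 0.157, unadjusted p = 0.0045, rank 298 by p). Without DTA-1 replicate 1 the log2 fold change was 0.76 (limma adjusted p = 0.290). With each of the 6 libraries left out in turn it lay between 0.76 and 1.36. Without both replicate 1 libraries, an alternative added after seeing the data, it was 0.64 (limma adjusted p = 0.253). In bulk RNA, fewer or more cells of a type and less or more RNA per cell cannot be told apart.

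Dusp5, which encodes a nuclear phosphatase specific for ERK, measured 18.8, 14.7 and 19.0 FPKM with the isotype and 12.5, 19.2 and 18.9 FPKM with DTA-1. The groups overlapped, and DTA-1 replicate 1 was the lowest of the 6 libraries. The log2 fold change was -0.06 ± 0.19 (limma adjusted p = 0.918), and its 95% interval corresponds to a fold of 0.713 to 1.29. Folds given for intervals here and below are folds of FPKM + 1, which understate changes in FPKM of low genes. Dusp1, an immediate early gene whose product acts mainly on p38 and JNK, stood at 5.99, 3.06 and 4.77 FPKM with the isotype and at 5.79, 4.25 and 4.44 FPKM with DTA-1. The isotype libraries spanned the whole DTA-1 range. Dusp2, which encodes a nuclear phosphatase found mainly in haematopoietic cells, measured 4.50, 3.01 and 3.69 FPKM with the isotype and 5.45, 3.96 and 3.38 FPKM with DTA-1, again with overlap. The log2 fold changes of Dusp1 and Dusp2 were 0.08 ± 0.21 and 0.15 ± 0.18, with intervals of 0.756- to 1.48-fold and 0.825- to 1.48-fold. Without DTA-1 replicate 1 the sign of these 3 differences turned, to 0.13 for Dusp5, -0.04 for Dusp1 and -0.01 for Dusp2.

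Promoter sequence was at hand for 9 of the 10 members, from RefSeq on GRCm38.p6 (the assembly of mm10), as windows from 250 bases before to 50 bases after the annotated start. Dusp4 was the member without an entry. Motifs were searched on both strands: the cyclic AMP response element TGACGTCA, the AP-1 site TGANTCA, the NF-kB site GGGANTTCC, the ETS site CCGGAAGT, the EGR site GCGTGGGCG and the CArG box, which binds serum response factor. The last was added after the sequences had been seen. The window of Dusp1 held a cyclic AMP response element, a motif present in 1.79% of all 32851 RefSeq windows. Dusp5 held a pair of CArG boxes directly next to each other, 82 and 72 bases before the start, where 1.63% of all windows hold at least 1. No other match fell into the 9 windows. AP-1, NF-kB, ETS and EGR letters occur in 7.81%, 1.68%, 3.89% and 0.612% of all windows. The 250 bases before the start of Dusp1 (minus strand, chr17:26508473-26508722) and Dusp5 (plus strand, chr19:53528895-53529144) are shown because they hold the matches, which are in capitals, and because neither gene differed between the groups beyond its spread.
Dusp1: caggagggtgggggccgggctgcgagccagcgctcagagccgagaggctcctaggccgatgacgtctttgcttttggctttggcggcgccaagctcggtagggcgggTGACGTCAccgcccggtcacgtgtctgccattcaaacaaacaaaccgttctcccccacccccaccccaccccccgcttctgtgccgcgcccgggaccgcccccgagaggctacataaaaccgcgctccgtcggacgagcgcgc
Dusp5: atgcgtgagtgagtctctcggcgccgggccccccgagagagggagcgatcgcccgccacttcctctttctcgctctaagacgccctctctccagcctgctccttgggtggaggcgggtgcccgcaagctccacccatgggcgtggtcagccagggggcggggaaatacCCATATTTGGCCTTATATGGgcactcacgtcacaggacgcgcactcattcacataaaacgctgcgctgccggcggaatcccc
A match is a run of letters and not a measured binding site. The capitals begin 143 bases before the start in Dusp1.

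None of the 3 phosphatase genes whose products work in or shuttle through the cytoplasm passed the test, and all had overlapping groups. Dusp6 encodes the cytoplasmic phosphatase of ERK. It measured 27.0, 35.4 and 34.5 FPKM in isotype replicates 1, 2 and 3 and 24.9, 44.4 and 42.9 FPKM in DTA-1 replicates 1, 2 and 3. DTA-1 replicates 2 and 3 lay above all isotype libraries and DTA-1 replicate 1 below them. The log2 fold change was 0.17 ± 0.22 (limma adjusted p = 0.803). Without DTA-1 replicate 1 it was 0.43 (limma adjusted p = 0.443, unadjusted p = 0.0278), with the groups apart. That was the highest value with a library left out. The lowest was 0.03, without DTA-1 replicate 2, and it was 0.05 without isotype replicate 1 or without DTA-1 replicate 3.

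Dusp10, whose product prefers JNK and p38, measured 5.86, 7.07 and 7.90 FPKM with the isotype and 3.59, 8.75 and 7.41 FPKM with DTA-1. DTA-1 replicate 1 was the lowest of all libraries and DTA-1 replicate 2 the highest. The log2 fold change was -0.13 ± 0.27 with a 95% interval of 0.597- to 1.40-fold, and it was 0.20 without DTA-1 replicate 1. Dusp16, which encodes a further phosphatase of JNK and p38, had the smallest SE of the 7 Dusp genes of the group. It measured 5.30, 6.0 and 4.76 FPKM with the isotype and 6.33, 5.67 and 5.82 FPKM with DTA-1. Its log2 fold change was 0.13 ± 0.13, with an interval of 0.896- to 1.34-fold. In FPKM + 1, a change of 1.5-fold in either direction lay outside the interval of Dusp16. The interval of Dusp6 (0.789- to 1.61-fold) included such a rise.

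Spry1 and Spry2 had higher means with DTA-1, and neither passed the test. Spry2 encodes a Sprouty protein that inhibits growth factor signalling to ERK. It measured 2.47, 2.56 and 2.47 FPKM with the isotype and 3.76, 3.35 and 2.84 FPKM with DTA-1. The groups did not overlap, and the isotype libraries lay close together (coefficient of variation 1.99%), closer than the counting error of 10% for this gene. The log2 fold change was 0.30 ± 0.13 (limma adjusted p = 0.360, unadjusted p = 0.0515). Spry1, its relative with a described role in lymphocyte receptor signalling, measured 3.16, 3.79 and 4.75 FPKM with the isotype and 6.54, 4.97 and 4.71 FPKM with DTA-1. DTA-1 replicate 3 lay just below isotype replicate 3, and the other DTA-1 libraries lay above the isotype range. Its log2 fold change was 0.39 ± 0.17 (limma adjusted p = 0.358, unadjusted p = 0.0503). Spred1, which works with neurofibromin to lower active Ras, measured 6.56, 5.34 and 4.49 FPKM with the isotype and 5.6, 5.41 and 5.99 FPKM with DTA-1. The DTA-1 libraries sat inside the isotype range, with a log2 fold change of 0.06 ± 0.15 and an interval of 0.824- to 1.31-fold. Without isotype replicate 3 the sign turned to -0.05.

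The 250 bases before the start of Spry2 (minus strand, chr14:105896820-105897069, GRCm38.p6) are printed for comparison with Dusp1 and Dusp5. Spry2 had groups apart and held none of the motifs searched, so that no letter is in capitals. Dusp2, Dusp6, Dusp10, Dusp16, Spry1 and Spred1 also held none, and their groups overlapped. Whether the motifs bear on the differences was not tested.
Spry2: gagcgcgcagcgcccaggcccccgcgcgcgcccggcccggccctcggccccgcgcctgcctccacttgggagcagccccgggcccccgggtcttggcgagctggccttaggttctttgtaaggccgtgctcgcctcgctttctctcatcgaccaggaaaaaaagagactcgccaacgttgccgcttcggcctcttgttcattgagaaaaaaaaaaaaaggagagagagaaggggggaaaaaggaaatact
The windows of the 9 members were rich in G and C, at 57.3% to 72.3% against a median of 52.7% over all RefSeq windows, with 19 to 40 CG dinucleotides against a median of 7. The RefSeq windows include genes not tested here, and medians over the tested genes were not computed. Dusp6, the lowest of the 9, lay at percentile 64.5 of G and C.

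**Figure D2:**
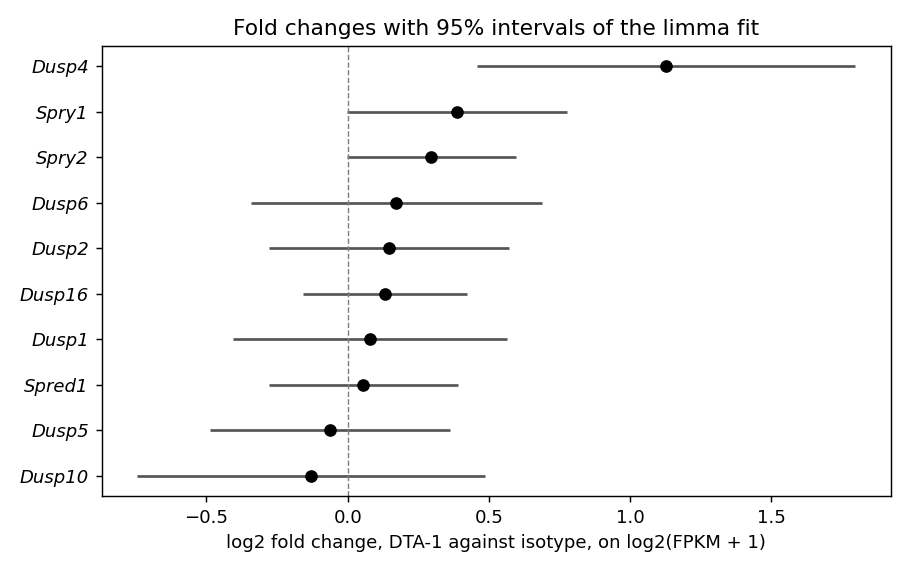
Log2 fold change of each member (x axis, on log2(FPKM + 1)) with its 95% interval from the limma fit, ordered by size (y axis). Only the interval of Dusp4 (0.46 to 1.79) leaves out 0, before adjustment over the genes tested.

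Counted together, 8 of the 10 members had a log2 fold change above 0 and 2 below, with a median of 0.14, beside a median of 0.01 over all 10501 tested genes (5527 above 0). No member passed the limma threshold of an adjusted p of 0.05, which 0.0286% of tested genes passed as higher and 0.00952% as lower. At an unadjusted p under 0.05, 1 member was higher (Dusp4) and none lower, where 6.22% of tested genes were higher and 7.73% lower. The groups were apart with DTA-1 above for 2 members (Dusp4 and Spry2) and with DTA-1 below for none, against 11.2% and 10.5% of tested genes. The members' counts therefore lie near the background. With each library left out in turn, Dusp4 and Spry2 necessarily kept their groups apart, because they were apart with all 6 libraries. Their staying apart therefore adds no information. Dusp6 joined them without DTA-1 replicate 1, Spry1 without isotype replicate 3 or DTA-1 replicate 3, Dusp16 without isotype replicate 2 and Spred1 without isotype replicate 1. In these smaller comparisons 13.2% to 19.1% of tested genes were apart with DTA-1 above.

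The members did not move as a block across the DTA-1 libraries. DTA-1 replicate 1 was the highest of its group for 6 members (Dusp1, Dusp2, Dusp4, Dusp16, Spry1 and Spry2) and the lowest for 3 (Dusp5, Dusp6 and Dusp10). Over all tested genes it was the highest of its group for 47.3% and the lowest for 33.4%. Relative to the isotype mean on the log2(FPKM + 1) scale, Dusp4 stood at 1.85 in DTA-1 replicate 1 and at 0.87 and 0.65 in replicates 2 and 3. Dusp6 stood at -0.35 in replicate 1 and at 0.46 and 0.41 in the others, and Dusp10 at -0.78 against 0.30 and 0.09.

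**Figure D3:**
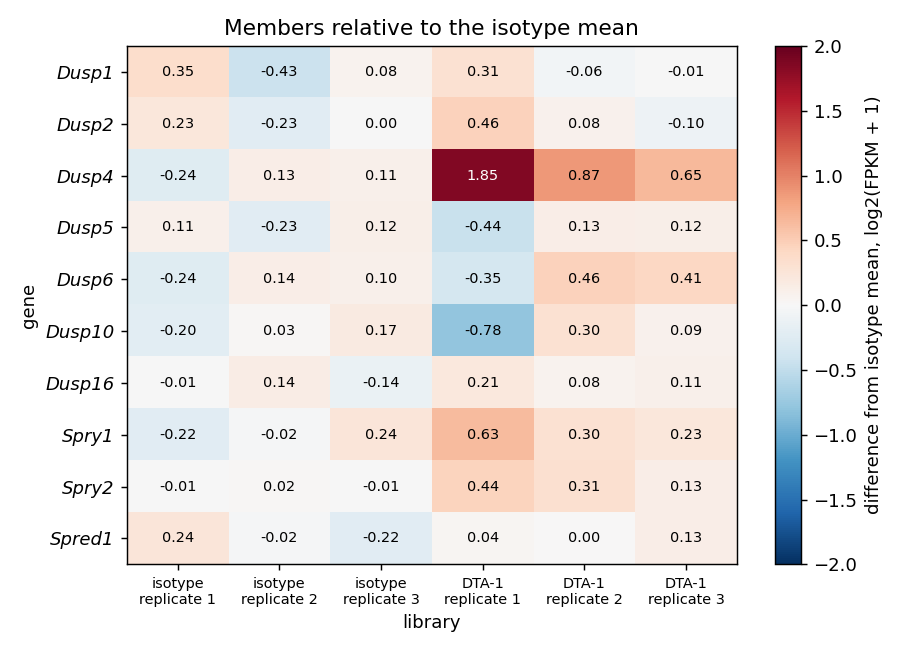
Difference of each member (rows) from its isotype mean on the log2(FPKM + 1) scale in each library (columns), in colour and digits. In DTA-1 replicate 1 Dusp4 is at 1.85 while Dusp10, Dusp5 and Dusp6 are at -0.78, -0.44 and -0.35.

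The make-up of the summed phosphatase level also differed between libraries. The 7 Dusp genes added up to 72.5, 76.1 and 81.3 FPKM in isotype replicates 1, 2 and 3 and to 83.5, 98.3 and 93.2 FPKM in DTA-1 replicates 1, 2 and 3, without overlap. Left without Dusp4, the sums were 67.4, 69.2 and 74.6 FPKM and 58.6, 86.2 and 82.9 FPKM, with overlap. Dusp4 made up 7.0%, 9.0% and 8.25% of the sum in the isotype libraries and 29.8%, 12.3% and 11% in the DTA-1 libraries. In DTA-1 replicate 1 it nearly equalled Dusp6, the dominant member elsewhere, with a ratio of Dusp4 to Dusp6 of 0.998. That ratio was 0.188, 0.193 and 0.195 in the isotype libraries and 0.273 and 0.239 in DTA-1 replicates 2 and 3. The ratio of Dusp4 to each of the other 6 Dusp genes was higher in every DTA-1 library than in every isotype library. The exact permutation test gave a 2-sided p of 0.1 for each of the 6 ratios, also after Benjamini-Hochberg adjustment, which is the smallest value that 3 libraries against 3 allow. Dusp4 was singled out for these ratios after its values were seen. All 6 ratios share Dusp4, so they are not 6 separate results.

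**Figure D4:**
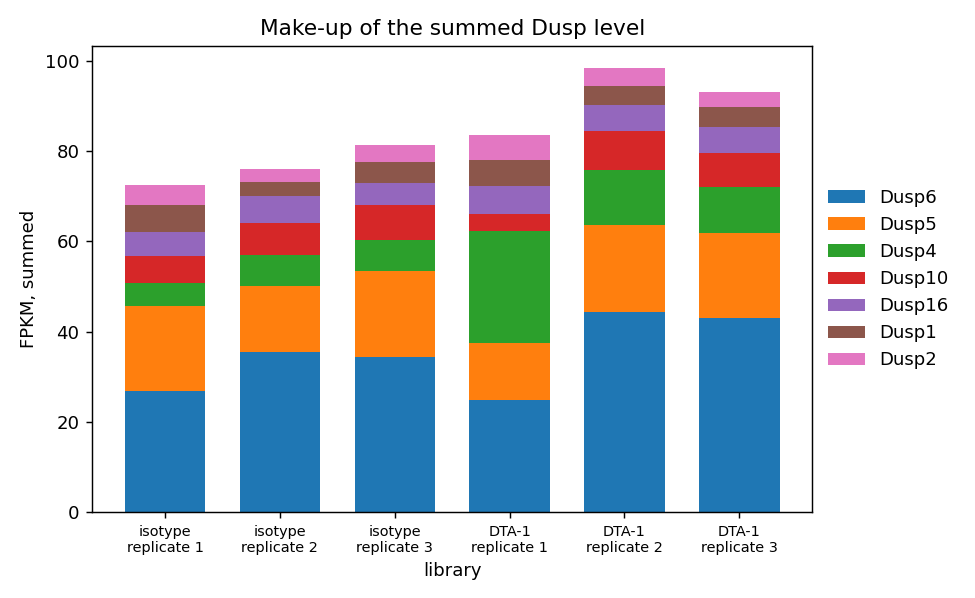
FPKM of the 7 Dusp genes stacked for each library (bars from 0; x axis, library). Dusp6 is the largest block in the isotype libraries, and in DTA-1 replicate 1 the Dusp4 block is as large as the Dusp6 block (ratio 0.998).

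The remaining genes of the pathway were followed through fixed lists. Of 18 other dual-specificity phosphatase genes 10 were tested and none passed the limma threshold. At an unadjusted p under 0.05, 1 was higher: Dusp3, whose small product acts on ERK and JNK, at 6.41 ± 1.10 and 8.74 ± 0.490 FPKM. Over all tested genes 6.22% were higher at that level. Dusp22 measured 8.96 ± 1.40 and 11.6 ± 1.56 FPKM, and Dusp11, a phosphatase of RNA and the most abundant of this list, 31.2 ± 0.781 and 33.9 ± 1.02 FPKM. Spry4, the remaining Sprouty gene with a signal, was at 0.066 to 0.284 FPKM and was not tested.

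A second list held 17 other Sprouty, Spred and ERK brake genes, of which 13 were tested and none passed. It leaned the other way from the members, with 11 of 13 below 0 and a median of -0.12. Rasa3, which encodes a GTPase-activating protein for Ras and Rap, measured 5.10 ± 1.05 and 2.85 ± 0.585 FPKM (log2 fold change -0.66 ± 0.18, limma adjusted p = 0.162). The groups were apart with DTA-1 below for 4 of the 13, against 10.5% of all tested genes. Dok2, an adaptor that restrains Ras, stood at 38.2 ± 2.52 and 32.0 ± 4.37 FPKM. Pebp1, which binds Raf, was the most abundant at 236 ± 28.1 and 250 ± 10.8 FPKM.

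The kinases themselves differed little. Of 24 tested genes of the ERK cascade none passed, with a median log2 fold change of 0.06. The upstream adaptor and exchange factor genes Grb2 and Sos1 measured 114 ± 19.8 and 88.0 ± 9.54 FPKM and 11.3 ± 1.77 and 8.12 ± 1.18 FPKM. Both had groups apart with DTA-1 below and an unadjusted p under 0.05. Of 27 tested genes of the JNK and p38 cascades none passed, and 7 had groups apart with DTA-1 above and 3 with DTA-1 below. Over all tested genes 11.2% and 10.5% had groups apart in these directions. Mapkapk3, a kinase downstream of p38, measured 76.9 ± 8.80 and 130 ± 19.4 FPKM (log2 fold change 0.75 ± 0.15, limma adjusted p = 0.0988), and Gadd45b, which encodes a stress-induced activator of the kinase cascade, 40.0 ± 4.93 and 65.7 ± 8.69 FPKM (limma adjusted p = 0.102). Mapkapk2, the most abundant gene of the list, measured 166 ± 18.9 and 182 ± 19.5 FPKM.

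Of 27 tested early genes that respond to MAP kinases, 1 rose over all genes. Atf3, a stress-induced transcription factor gene, measured 9.39, 11.8 and 10.7 FPKM with the isotype and 31.5, 28.6 and 27.4 FPKM with DTA-1 (limma adjusted p = 0.0116). It no longer passed when isotype replicate 3 or any 1 of the DTA-1 libraries was left out, nor without both replicate 1 libraries. The list median was 0.26, and 10 genes of the list had groups apart with DTA-1 above and none with DTA-1 below. The shares over all tested genes were 11.2% and 10.5%. Egr1, a transcription factor gene driven by ERK, measured 4.74, 4.37 and 5.48 FPKM with the isotype and 8.12, 12.1 and 10.4 FPKM with DTA-1 (limma adjusted p = 0.0819). Unlike Dusp4, its lowest DTA-1 library was replicate 1. Junb, the most abundant of the list, measured 276 ± 113 and 334 ± 67.5 FPKM with a limma adjusted p of 0.673.

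Cell cycle genes lay lower in the DTA-1 libraries. Of 20 tested, none passed over all genes, while all 20 lay below 0 with a median of -0.80. Groups were apart with DTA-1 below for 19, against 10.5% of all tested genes. Pcna, the sliding clamp of DNA replication, measured 301 ± 36.5 and 180.2 ± 6.07 FPKM, and the helicase gene Mcm5 83.0 ± 17.1 and 48.9 ± 1.34 FPKM. Their mean per library stood at 0.91, 0.16 and 0.12 from the mean of all libraries in isotype replicates 1, 2 and 3 and at -0.29, -0.49 and -0.41 in DTA-1 replicates 1, 2 and 3, on the log2(FPKM + 1) scale. The part of cell cycle genes, or of the libraries that stood apart, in the values of the Dusp and Spry genes was not tested.

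**Figure D5:**
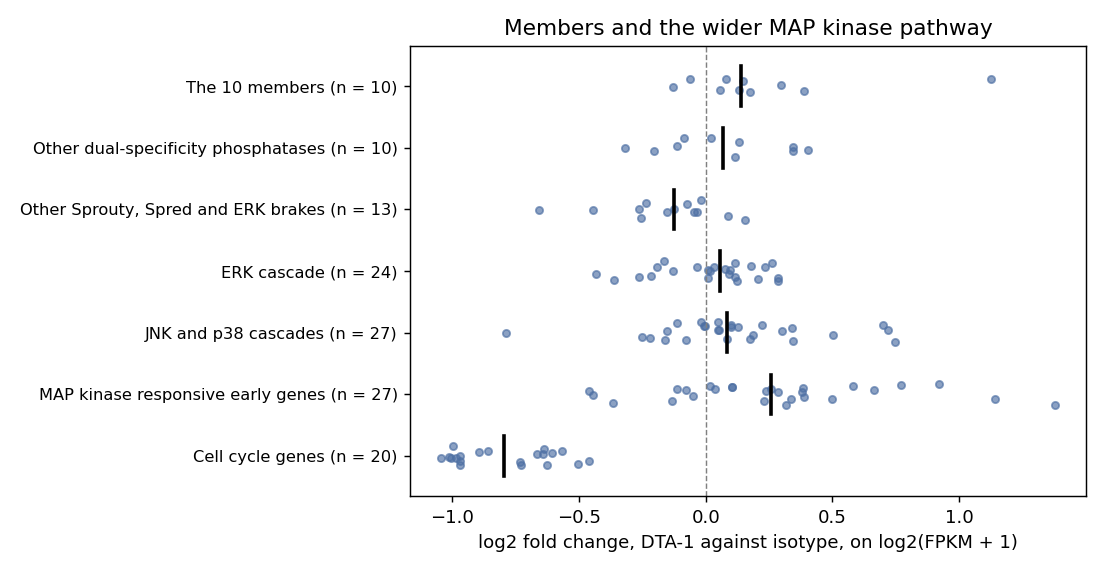
Log2 fold changes (x axis, on log2(FPKM + 1)) of the tested genes of each list (rows, 1 point per gene, vertical spread for visibility only); black bars are list medians. The members lie around a median of 0.14 with Dusp4 apart at 1.13, early response genes around 0.26 and cell cycle genes around -0.80.

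Genes with a profile like that of a member were sought among 8131 other tested genes with a mean of at least 5 FPKM, by Pearson's r of log2(FPKM + 1) over the 6 libraries, as a description. Nearest to Dusp4 were Gm9199 (r = 0.998), Pmepa1 (r = 0.992) and Dennd5a (r = 0.991). Pmepa1, for example, measured 16.9, 21.5 and 19.5 FPKM with the isotype and 41.4, 26.3 and 25.6 FPKM with DTA-1, with the same peak in DTA-1 replicate 1. Nearest to Dusp6 were Ccdc71l (r = 0.991), Lilrb4a (r = 0.989) and Hsd17b7 (r = 0.985). Lilrb4a, which encodes an inhibitory surface receptor, measured 40.6, 73.7 and 80.1 FPKM with the isotype and 38.3, 110 and 110 FPKM with DTA-1, with low values in both replicate 1 libraries. Dusp4 had 91 genes with an r above the level of 0.95 and Dusp6 had 21. The 6 points share 2 groups and the libraries that stood apart.

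The members share no locus. GENCODE M21 on GRCm38 places Dusp4 on chromosome 8 at 34807297 to 34819894 (plus strand), Dusp6 on chromosome 10 at 99263231 to 99267489 (plus strand), Spry1 on chromosome 3 at 37639947 to 37644598 (plus strand) and Spry2 on chromosome 14 at 105891947 to 105896819 (minus strand). Dusp2 and Spred1 are the only members on the same chromosome, chromosome 2, starting at 127336159 and 117121374. The longest coding transcript has 2 to 4 exons in 8 members and 7 in Dusp16 and Spred1. AU-rich letters in the 3' UTR, which mark many short-lived transcripts, varied among them. The pentamer ATTTA occurred 6.88 times per kilobase in Dusp2 and 5.80 times in Dusp1, against a median of 1.34 over 9777 tested genes with an annotated 3' UTR, and 1.80 times in Dusp4, 0.902 in Dusp5 and 0.841 in Dusp6. The nonamer TTATTTATT was present in 1 member, Dusp1, and in 8.39% of tested genes.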

How the data were processed

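The 6 libraries were grouped and numbered by their titles, 3 isotype and 3 DTA-1. The treatment tags of replicates 2 and 3 carry running numbers in the antibody names (IgG3b, DTA-2 and so on), at odds with the titles, and were left aside. Per the labels' protocols, 1.3 ug of RNA per sample went into a directional kit. TopHat and mm10 are named in the submitters' processing notes. The counting program, its annotation and whether it used strand are not given in the sources at hand, so reads of overlapping or antisense genes cannot be told apart. The authors deposited 1 value per gene and library with no unit named. The deposited values were read as FPKM: they are fractional, their totals differ (574195 to 606724), and low values step with the inverse of transcript length. Between 78.9% and 83.4% of low values lay within 0.2 of a whole multiple of that step, which gave the depth estimate. Libraries of a group differed by 13.7 to 113 times the counting variance, so none was treated as a copy.

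A gene was tested if 3 or more libraries reached 1 FPKM, which left 10501 genes and all 10 members. limma 3.58.1 (R 4.3.3) was run on log2(FPKM + 1), using group as its only term and moderated variances with a trend and robust estimation. P-values were adjusted by Benjamini-Hochberg over all tested genes, and the threshold was 0.05. The procedure was tested on simulated data with independent noise in each library and no library that stood apart. Its recovery of changes as small as those of most members is not reported here. The members and gene lists were chosen with earlier results of these data known. From each list the text names genes past the threshold, the 2 of lowest p and the 1 of highest mean level; 1 gene that this rule names is not reported here. Pseudocount, filter, scaling, moderation, replicate block and left-out libraries were varied. Plots were made in matplotlib 3.10.9 (Python 3.11.15).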

Additional observations from a re-analysis of the deposited data

How the results depend on the processing

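No member passed the limma threshold in the main fit or under any alternative run, and the lowest adjusted p of Dusp4 was 0.0803, with the replicate block. Settings tried were the pseudocount, filters on low values, scaling, quantile normalization, moderation, the block, each library left out, and both replicate 1 libraries left out together, which was added after seeing the data. The filter on a mean of 5 FPKM left Dusp1, Dusp2, Spry1 and Spry2 untested. Of 146 member values under alternatives, 138 kept their sign. With each library left out in turn, log2 fold changes ranged from -0.135 to 0.257 for Dusp1, -0.0101 to 0.270 for Dusp2, -0.179 to 0.126 for Dusp5, -0.347 to 0.197 for Dusp10 and -0.0549 to 0.175 for Spred1. Without both replicate 1 libraries they were 0.179 for Dusp5 and 0.0956 for Dusp10. Over all genes, 3 were higher and 1 lower. Left-out libraries gave 0 to 3 higher and 0 to 1 lower, and both replicate 1 libraries left out gave 1 and 0. Lower genes numbered 2 with equal totals, with median ratio scaling and with quantile normalization, which gave 5 higher. With the replicate number as a block, 59 were higher and 126 lower. The labels do not say whether equal numbers share an animal or culture. Deviations of same-numbered libraries from their group means correlated at 0.393, -0.101 and -0.129, and not every library correlated best with its own number. Deviations within a group sum to 0, so these correlations constrain each other and cannot decide whether the libraries are paired. Of the pathway lists 1 gene was higher, against 2 with the replicate block, 0 to 1 with a library left out, and 0 without both replicate 1 libraries. The cause was not tested. Count tests planned for the case of count tables were not run. Depth limits the precision of Spry2 and Dusp2 most, with a counting error of 10%.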
